A study of Mus musculus with 24 samples.

Results

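The comparison described here sets rigid against compliant three-dimensional culture in 4TO7, a mouse breast carcinoma line that the labels call systemically invasive. Its members are the 8 microarrays of 4TO7 cells among the 24 of the series, chosen by their titles: 4 arrays name a rigid and 4 a compliant microenvironment. Cells were kept for 6 days in organotypic culture, that is, embedded culture that imitates tissue, before total RNA including small RNA was taken. On each side 2 arrays came from cells given a TGF-beta type I receptor inhibitor, which the titles call basal, and 2 from cells given TGF-beta (TGFb in the titles), so that treatment was balanced between rigid and compliant. No 4TO7 group lacked both agents. The labels give no stiffness value and no composition of the cultures, and nothing in them says that the 2 arrays of a group, set 1 and set 2, are of separate cultures. The p-values therefore measure only the spread between arrays of the same group, which may be technical, pooled over the groups of all 24 arrays. The same 4 conditions were arrayed in 67NR, which the labels call nonmetastatic, and in 4T1, called highly metastatic, with 8 arrays each.

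Cells sense the rigidity of their surroundings through integrin adhesions and contractile actin, and signal through focal adhesion kinases and the transcriptional coactivators YAP and TAZ. Stiffening is a known feature of breast tumours, and TGF-beta is held and activated in the extracellular matrix. MicroRNAs (miRNAs) are short RNAs that lower the output of messenger RNAs that pair with their seed, a run of bases near the 5′ end, and miRNAs that share a seed share many predicted targets.

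The 10 miRNAs that differed between rigid and compliant culture at an adjusted p under 0.05 are introduced first by sequence, because the comparisons of seed relatives and hairpin arms below rest on these letters. The probes carry older miRNA names, in which an asterisk marks the rarer strand of a hairpin, and each was matched by name to its current mature form. RefSeq (build GRCm38.p6) held 9 of the 10, printed 5′ to 3′ with the seed, bases 2 to 8, in capitals. These were lower on the rigid side:
miR-205: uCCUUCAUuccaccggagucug
miR-210: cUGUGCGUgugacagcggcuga
miR-9: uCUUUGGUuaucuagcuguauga
miR-31*: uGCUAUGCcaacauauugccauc
miR-148a: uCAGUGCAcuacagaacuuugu
miR-149: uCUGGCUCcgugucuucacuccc
miR-99a: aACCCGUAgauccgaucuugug

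These were higher on the rigid side, beside miR-805:
miR-708: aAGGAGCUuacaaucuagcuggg
miR-882: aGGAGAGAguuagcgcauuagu

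No seed was shared between any of these 9, so they form no seed family. miR-205 lies at chr1:193507503-193507524 on the minus strand, within the host gene Mir205hg. The single locus of miR-210 is chr7:141221407-141221428 on the minus strand, outside any other annotated gene. miR-31* is read from chr4:88910577-88910599 on the minus strand, within the predicted gene Gm49890. miR-148a is at chr6:51269829-51269850 on the minus strand, within Gm38821. miR-149 is at chr1:92850381-92850403 on the plus strand, within Gpc1, which encodes the cell surface proteoglycan glypican. miR-99a is at chr16:77598940-77598961 on the plus strand, outside annotated genes, and let-7c lies within 10000 bases of it. miR-708 is at chr7:96249450-96249472 on the plus strand, within Tenm4, a teneurin gene. miR-882 is at chr12:109682207-109682228 on the plus strand. Mature miR-9 has 3 loci, on chromosomes 3, 7 and 13, which the probe cannot tell apart. Whether a locus is exonic or intronic was not used here.

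The measured quantity was the relative intensity of a probe, the sample's dye signal over that of a common reference, taken as log2 after quantile normalization of the 558 miRNA probes over all 24 arrays. A probe was tested if the deposited detection p was under 0.05 on both arrays of at least 1 of the 12 groups of line, culture and treatment, which left 365 probes, 7 of them with the names of several miRNAs. On the 8 arrays 323 to 348 of the 558 probes were detected, and 314 of the 365 tested were detected on all 8. Arrays of the same group correlated at 0.997 to 0.998 over the tested probes, and arrays of different 4TO7 groups at 0.989 to 0.997. The deposited relative error of a single value had a median of 5.75% to 7.59% per array. A difference is the mean of the rigid minus the compliant level with each treatment, given as log2 ± SE from limma.

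Markers of other cell types were set against the label first. Of 6 epithelial miRNAs of the miR-200 and miR-205 group, miR-141 was detected on all 8 4TO7 arrays, miR-200a on 3 rigid and 3 compliant arrays, and miR-200b, miR-200c and miR-429 on none, whereas those last 3 were detected on all 8 arrays of 4T1. The 3 members of the miR-183 cluster, also epithelial, were detected on all 8 4TO7 arrays. Of 7 blood markers, 6 were below detection on every 4TO7 array, and the exception, miR-451, an erythroid miRNA, lay between 9.87 and 10.26. Both endothelial miR-126 strands were undetected. Of 5 muscle probes 4 were detected on no 4TO7 array, but miR-208b was detected on all 8. Of 5 neural and liver probes, miR-122 and miR-138 were detected on all 8 and 2 on none. Of 10 embryonic stem cell probes, 4 were detected on all 8 and 4 on none. The 5 tested fibroblast markers summed to a normalized relative intensity of 9189 to 9858 on rigid and 9051 to 9793 on compliant arrays, ranges that overlapped, while miR-143 and the probe for miR-199a-3p and miR-199b were detected on no 4TO7 array.

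Few 4TO7 miRNAs differed between rigid and compliant culture, and by small amounts. Of 365 tested, 10 passed limma's test, or 2.74%, with 3 higher (0.822%) and 7 lower (1.92%) on the rigid side, while 62 had an unadjusted p under 0.05. The median difference over all 365 was 0.01, the median size without sign was 0.05, and the 5th and 95th percentiles were -0.16 and 0.13. Quantile normalization keeps this median near 0 in advance, so a shift common to all miRNAs could not appear. Only miR-205 and miR-210, both lower on the rigid side, differed by more than 0.5. The split of calls moved with the scaling: scaling each array to the median of its always detected probes (those detected on all 24) gave 21 calls, 3 higher and 18 lower, the authors' own value table gave 12, 5 higher and 7 lower, and values with no normalization gave 2, both lower.

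**Figure D1:**
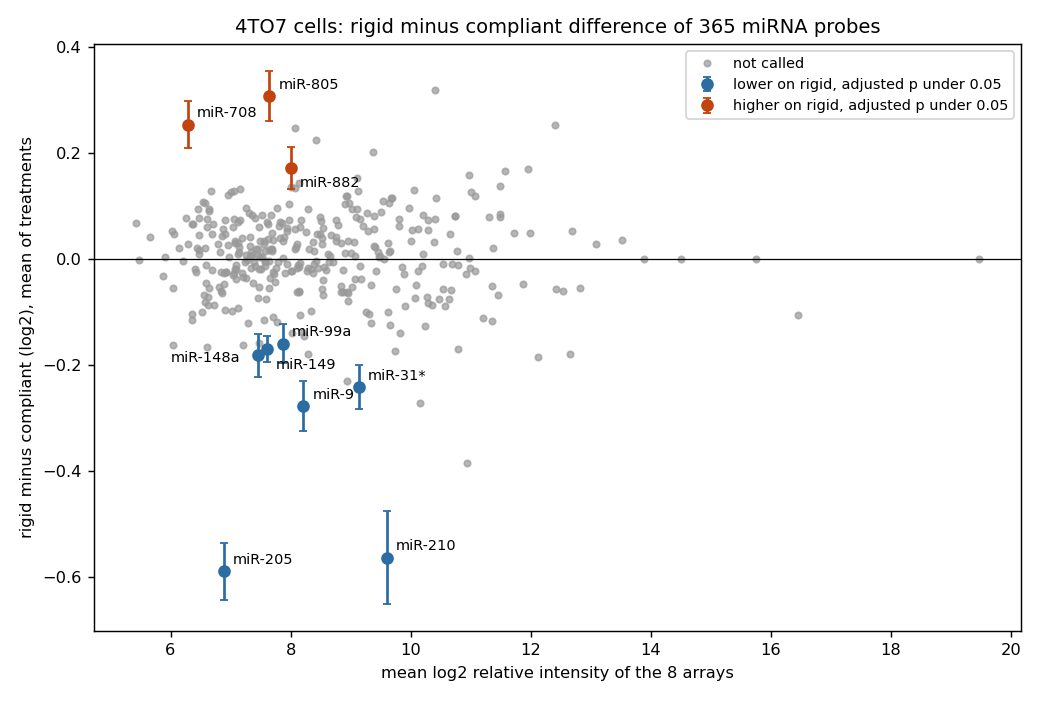
Rigid minus compliant log2 difference (y axis, mean of both treatments) against the mean log2 relative intensity of the 8 4TO7 arrays (x axis) for the 365 tested miRNA probes; coloured points are the 10 called miRNAs with SE bars, grey points the rest. Most probes lie close to 0, and miR-205 and miR-210 lie below -0.5.

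miR-205, an epithelial miRNA that represses the mesenchymal regulators ZEB1 and ZEB2, showed the largest difference. In compliant culture its level was 7.76 and 7.67 with the inhibitor and 6.79 and 6.54 with TGF-beta. In rigid culture it was 7.01 and 6.85 with the inhibitor and 6.25 and 6.29 with TGF-beta. It was detected only on the 2 compliant arrays with the inhibitor, and on no array of the other lines. It thus entered the test only through the group where it was highest. The filter therefore favoured a fall on rigid culture, and its p-values, here and below, take no account of that. Within each treatment the rigid arrays lay below the compliant ones. The mean was 6.60 on rigid and 7.19 on compliant arrays, a difference of -0.59 ± 0.05 (limma, adjusted p = 4.67e-06). No rigid array and neither compliant TGF-beta array detected it, so a fold is given for the inhibitor alone, and as a bound: at least 1.73-fold lower on rigid culture. Each difference of miR-205 that takes in the TGF-beta arrays, here and below, is in part or wholly one between values not above background. As the RNA came from whole cultures, fewer cells with a miRNA and less of it per cell cannot be told apart, here and below.

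miR-210, the miRNA best known for its induction by hypoxia-inducible factor, was the other large fall. Compliant arrays read 10.22 and 9.96 with the inhibitor and 9.71 and 9.65 with TGF-beta. Rigid arrays read 9.58 and 9.51 with the inhibitor and 9.28 and 8.91 with TGF-beta. All 4 rigid values lay below all 4 compliant values, although the compliant TGF-beta arrays and the rigid inhibitor arrays nearly met. The difference was -0.56 ± 0.09 (adjusted p = 0.000958), that is, 1.48-fold more on compliant culture. It was the only miRNA of the hypoxia list on the array, so no second marker of low oxygen was measured.

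miR-9 and miR-31* fell by smaller amounts with tight replicates. miR-9, a neural miRNA reported to target E-cadherin in breast cancer cells, stood at 8.39, 8.39, 8.28 and 8.34 on the compliant arrays, in the order inhibitor set 1, inhibitor set 2, TGF-beta set 1, TGF-beta set 2. The rigid arrays in the same order gave 8.18, 8.11, 7.997 and 8.01. None of the rigid values reached the lowest compliant one, and the difference was -0.28 ± 0.05 (adjusted p = 0.00186), 1.21-fold. Its other arm, miR-9*, was detected on no 4TO7 array.

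miR-31* is the minor strand of miR-31, a miRNA reported to hold back breast cancer metastasis. It read 9.38, 9.40, 9.12 and 9.13 on compliant and 9.10, 9.06, 8.91 and 8.99 on rigid arrays in that order. The groups did not overlap, but the gap between the highest rigid and the lowest compliant array was narrow. The difference was -0.24 ± 0.04 (adjusted p = 0.00186), 1.18-fold. Both strands come from 1 hairpin, shown with miR-31 and then miR-31* in capitals (chr4:88910557-88910662, minus strand):
Mir31: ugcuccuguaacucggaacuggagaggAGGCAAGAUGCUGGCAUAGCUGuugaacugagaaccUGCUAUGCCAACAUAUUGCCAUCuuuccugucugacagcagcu

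The major strand, miR-31, had a difference of -0.18 ± 0.08 that did not pass (adjusted p = 0.235). It read 12.30, 12.24, 12.11 and 12.24 on compliant and 12.01, 12.11, 12.11 and 11.91 on rigid arrays, so that the groups touched. The difference between the strands' differences was not tested.

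The remaining falls were smaller still. miR-149, reported as a suppressor of migration, read 7.57, 7.57, 7.82 and 7.81 on compliant and 7.42, 7.41, 7.60 and 7.66 on rigid arrays. It was undetected on both rigid inhibitor arrays, and within each treatment the sides did not overlap. Its difference of -0.17 ± 0.02 (adjusted p = 0.000958) was 1.12-fold, and had the smallest SE of the 10. With the inhibitor the rigid side gives only a bound, at least 1.11-fold lower.

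miR-148a, which targets DNA methyltransferases, read 7.31, 7.36, 7.70 and 7.82 on compliant and 7.18, 7.29, 7.43 and 7.56 on rigid arrays, a difference of -0.18 ± 0.04 (adjusted p = 0.0192). miR-99a, a repressor of mTOR, read 8.21, 8.15, 7.71 and 7.72 on compliant and 7.997, 7.91, 7.56 and 7.68 on rigid arrays, a difference of -0.16 ± 0.04 (adjusted p = 0.0225). Rigid and compliant arrays of both miRNAs were apart within each treatment and mixed across treatments. Both calls depended on single arrays: miR-148a was lost without compliant basal set 2, compliant TGFb set 2, rigid basal set 1 or rigid TGFb set 1 (adjusted p up to 0.118), and miR-99a without compliant basal set 1, compliant TGFb set 2, rigid basal set 2 or rigid TGFb set 1 (adjusted p up to 0.140).

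The 3 rises were led by miR-805, for which RefSeq held neither a sequence nor a locus, so what its probe measures was not checked. Its compliant arrays read 7.48, 7.53, 7.42 and 7.55 and its rigid arrays 7.67, 7.81, 7.83 and 7.90, with no overlap. The difference was 0.31 ± 0.05 (adjusted p = 0.000958), 1.24-fold. miR-708, reported as a suppressor of breast cancer cell migration, read 6.21, 6.17, 6.12 and 6.17 on compliant and 6.28, 6.47, 6.42 and 6.51 on rigid arrays. It was detected on all 8 arrays, every rigid value was above every compliant one, and the difference was 0.25 ± 0.04 (adjusted p = 0.00186), 1.19-fold. miR-882 read 7.88, 7.86, 8.02 and 7.92 on compliant and 8.02, 7.98, 8.21 and 8.16 on rigid arrays, with detection on 2 arrays of each side. Its difference of 0.17 ± 0.04 (adjusted p = 0.0225) was lost under 12 of 19 alternatives, among them 6 of the 8 that left out an array (without either compliant basal array, compliant TGFb set 2, either rigid basal array or rigid TGFb set 1), with an adjusted p of up to 0.118 in those. A fit to the 8 4TO7 arrays alone ended the calls of miR-708 (adjusted p = 0.0632), miR-882 (adjusted p = 0.0653), miR-148a and miR-99a (both adjusted p = 0.114).

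**Figure D2:**
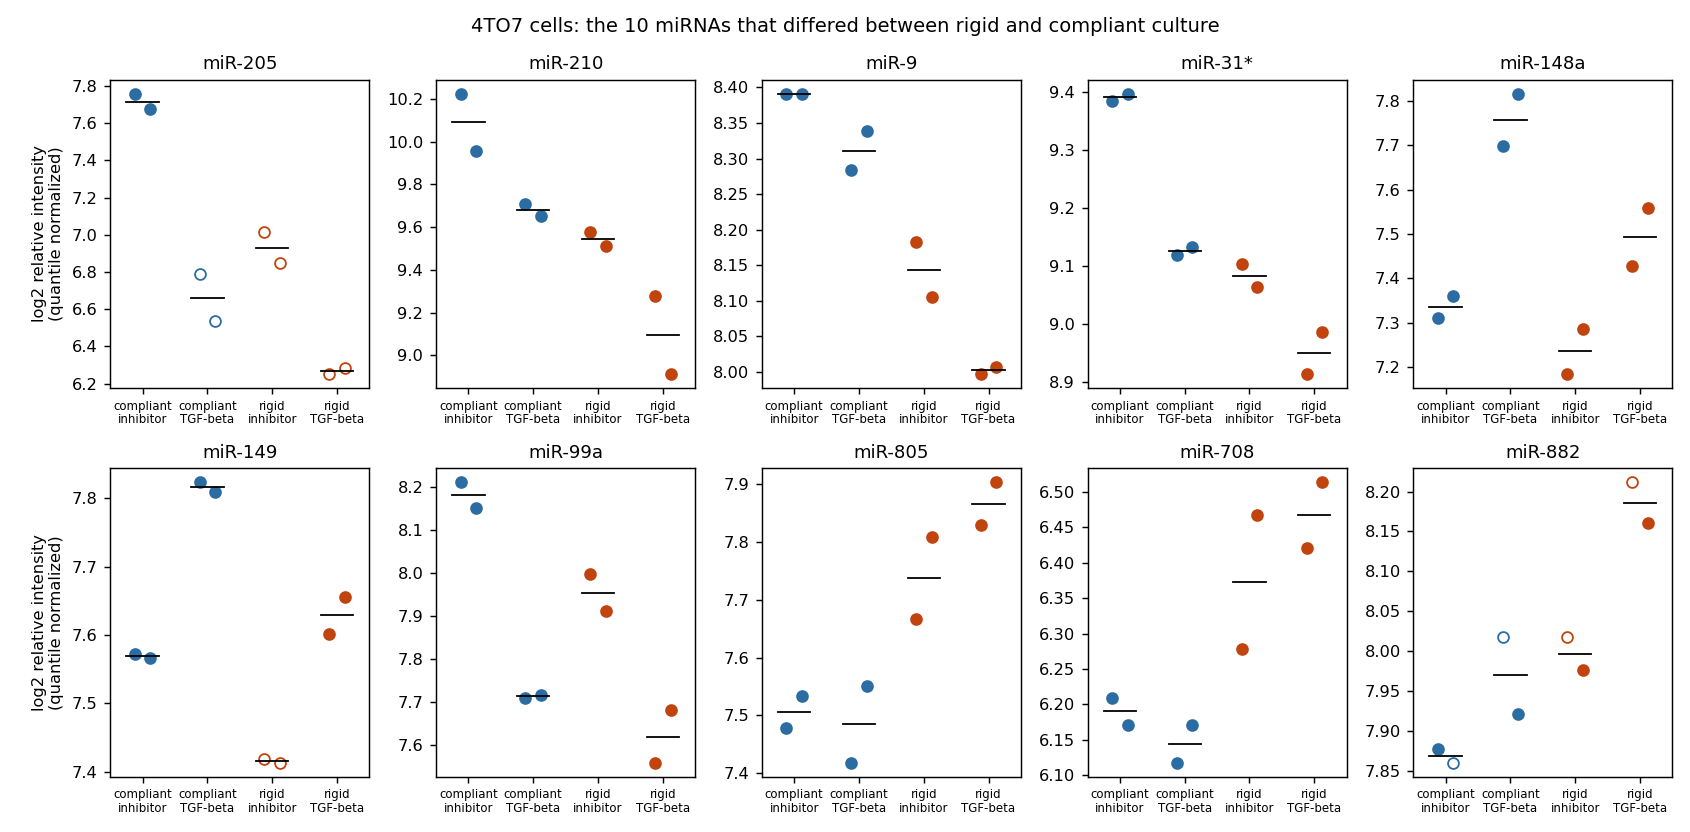
Log2 relative intensity (y axis, quantile normalized, a separate scale per panel that does not start at 0) of the 10 called miRNAs on each of the 8 arrays, by culture and treatment (x axis); filled circles are detected values, open circles undetected ones, and bars the mean of 2 arrays. miR-205 is filled only on the compliant inhibitor arrays, and miR-210, miR-9, miR-31*, miR-805 and miR-708 show no overlap between rigid (orange) and compliant (blue) arrays.

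Over all 365 tested miRNAs, the 4 rigid and 4 compliant arrays did not overlap for 13, or 3.56%. These held 5 of the 10 called, miR-210, miR-9, miR-31*, miR-805 and miR-708. The others, named after their values were seen, were miR-28, miR-666-3p, miR-200c*, miR-218-2* and miR-34b-5p above and miR-715, miR-30e and miR-92a below, and none of these 8 passed limma's test. No rigid array detected miR-200c*. Non-overlap within both treatments and in the same direction held for all 10 called and for 47 of 365, or 12.9%.

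With the receptor inhibitor, 5 miRNAs passed (1.37%), all lower on rigid culture, and 25 had an unadjusted p under 0.05. miR-205 differed by -0.79 ± 0.08 (adjusted p = 1.03e-05). The other 4 were miR-210 at -0.54 ± 0.12 (adjusted p = 0.0441), miR-31* at -0.31 ± 0.06 (adjusted p = 0.0193), miR-99a at -0.23 ± 0.05 (adjusted p = 0.0441) and miR-149 at -0.15 ± 0.04 (adjusted p = 0.0441). All but miR-205 rested on both arrays of each group: leaving out any of the 4 inhibitor arrays (compliant set 1 or 2, rigid set 1 or 2) left 1 call, miR-205. Leaving out either compliant TGFb array, which is in no mean of this comparison but in its variance estimate, left 2, miR-205 and miR-31*. In the authors' table, which does not hold miR-205, the single call was miR-16, higher on rigid culture.

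With TGF-beta, 9 passed (2.47%), 3 higher (0.822%) and 6 lower (1.64%), and 52 had an unadjusted p under 0.05. The rises were miR-805 at 0.38 ± 0.07 (adjusted p = 0.0102), miR-708 at 0.32 ± 0.06 (adjusted p = 0.0102) and miR-28 at 0.22 ± 0.05 (adjusted p = 0.0229). The falls were miR-210 at -0.58 ± 0.12 (adjusted p = 0.0172), miR-205 at -0.39 ± 0.08 between undetected values (adjusted p = 0.0102), miR-9 at -0.31 ± 0.07 (adjusted p = 0.0172), miR-222 at -0.30 ± 0.07 (adjusted p = 0.0191), miR-148a at -0.26 ± 0.06 (adjusted p = 0.0172) and miR-149 at -0.19 ± 0.04 (adjusted p = 0.0102). These calls leaned on single arrays: none passed limma's test without compliant TGFb set 1 (smallest adjusted p = 0.0686, with 56 at an unadjusted p under 0.05), 2 passed without compliant TGFb set 2, and 3 without rigid TGFb set 1. A limma fit to the 8 4TO7 arrays alone called none (smallest adjusted p = 0.0911, with 55 at an unadjusted p under 0.05). Median scaling over all probes gave 2 higher and 7 lower, and scaling to the median of the always detected probes 2 higher and 11 lower.

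miR-210 and miR-149 passed in both treatments, and so did miR-205, whose TGF-beta values were not above background on either side. No miRNA's rigid minus compliant difference was itself shown to change with treatment: limma's test of that change called 0 of 365, with a smallest adjusted p of 0.469 and 8 at an unadjusted p under 0.05. The 6 with the smallest p were miR-205, at 0.39 ± 0.11 miR-140* at 0.34 ± 0.09, miR-140 at 0.30 ± 0.09, miR-350 at -0.28 ± 0.09, miR-421 at 0.22 ± 0.08 and miR-222 at -0.26 ± 0.10, each the difference with TGF-beta minus that with the inhibitor. miR-140 and miR-140*, both arms of a cartilage and mesenchymal hairpin, thus stood lower on rigid culture with the inhibitor (-0.09 and -0.08) and higher with TGF-beta (0.20 and 0.26), but neither change passed. Without compliant TGFb set 1, 1 miRNA passed, miR-205, which was undetected in 3 of the 4 groups, so its change with treatment was not measured. Across the 365 miRNAs the differences in the 2 treatments, which share no arrays but share the normalization, correlated at 0.458 and had the same sign for 223, or 61.1%. They also share slides, described below: slide 2 held compliant arrays of both treatments and slide 4 rigid arrays of both. The part of slide in this correlation was not tested.

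**Figure D3:**
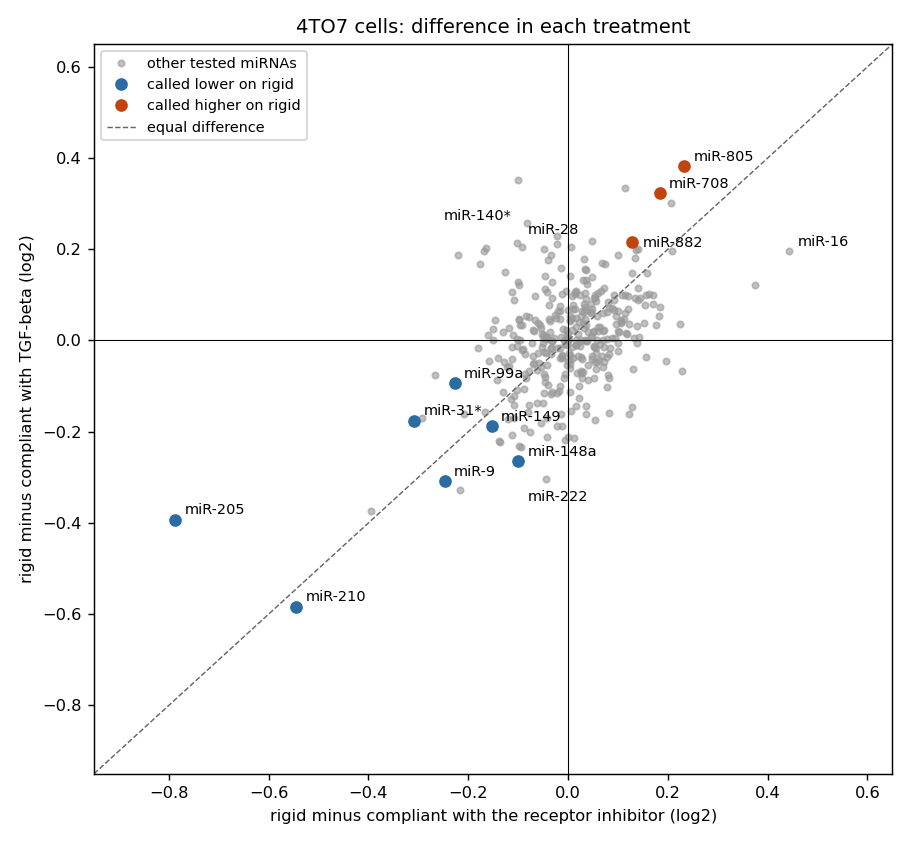
Rigid minus compliant log2 difference with TGF-beta (y axis) against that with the receptor inhibitor (x axis) for the 365 tested miRNAs; coloured points are the 10 called over both treatments, the dashed line marks equal differences. All 10 lie in the lower left or upper right quadrant, miR-205 is farther from 0 with the inhibitor and miR-210 sits near the line.

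The first part of each array's description in the labels was taken as its slide. This gave 5 slides, and the sides were unevenly placed on them. Slide 4 held 3 of the 4 rigid but 1 of the 4 compliant 4TO7 arrays, both rigid inhibitor arrays among them, and no slide held rigid and compliant 4TO7 arrays with the inhibitor, so that a within-slide value exists only for TGF-beta. With slide as a fixed block over the 24 arrays, 7 miRNAs passed (1.92%), of which 6 were among the 10: miR-205 at -0.65 ± 0.06 (adjusted p = 0.000151), miR-210 at -0.59 ± 0.10 (adjusted p = 0.0192), miR-9 at -0.31 ± 0.06 (adjusted p = 0.0204), miR-149 at -0.18 ± 0.03 (adjusted p = 0.0265), miR-805 at 0.33 ± 0.07 and miR-708 at 0.26 ± 0.06 (both adjusted p = 0.0283). The addition was miR-200c*, at 0.18 ± 0.04, detected on 1 of the 8 4TO7 arrays, compliant TGFb set 2. Its rigid values were thus not above background. The block ended the calls of miR-31* (-0.24 ± 0.06, adjusted p = 0.114), miR-148a (-0.19 ± 0.05, adjusted p = 0.138), miR-99a (-0.16 ± 0.05, adjusted p = 0.138) and miR-882 (0.14 ± 0.05, adjusted p = 0.242). With the inhibitor alone it left 1 call, miR-205, and with TGF-beta alone 4.

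The single pair of arrays within slide 4, rigid TGFb set 2 minus compliant TGFb set 1, kept the sign of all 10. It gave -0.79 for miR-210, -0.50 for miR-205 between undetected values, -0.28 for miR-9, -0.17 for miR-149, -0.14 for miR-148a, -0.13 for miR-31* and -0.03 for miR-99a. It gave 0.48 for miR-805, 0.40 for miR-708 and 0.14 for miR-882. With 1 pair there is no test. miR-99a was close to 0 there, while miR-210 was farther from 0 than over all 8 arrays.

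**Figure D4:**
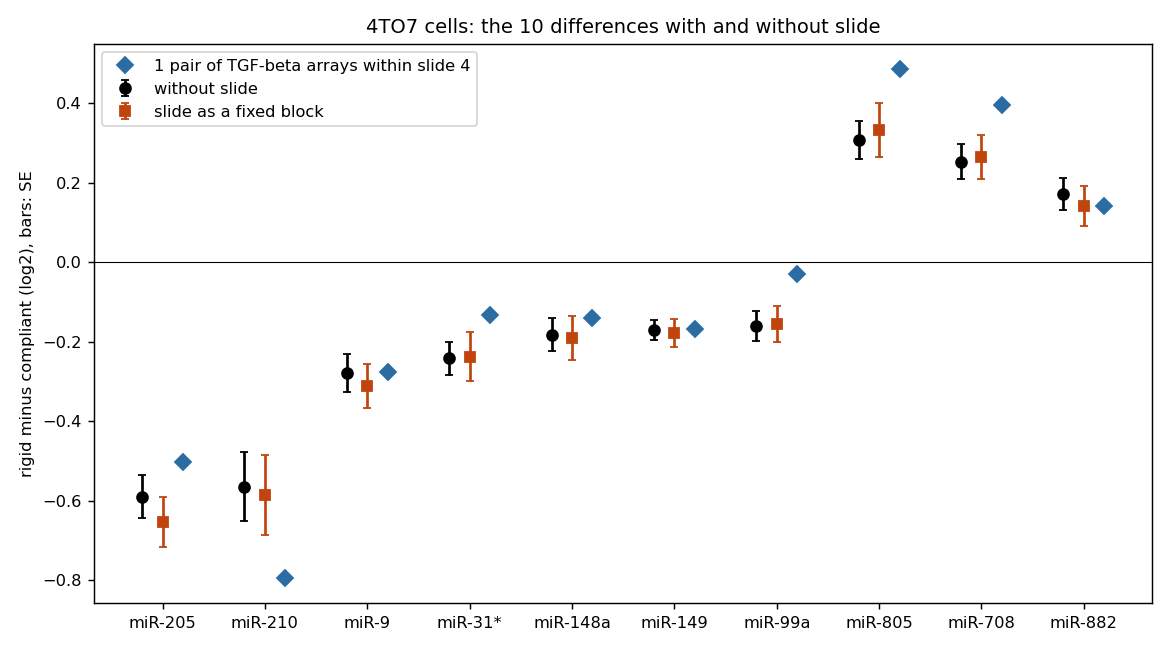
Rigid minus compliant log2 difference (y axis) of the 10 called miRNAs (x axis) without slide in the fit (black circles, SE), with slide as a fixed block (orange squares, SE) and in the single pair of TGF-beta arrays on slide 4 (blue diamonds, no error). The 3 values of each miRNA have the same sign, and the diamond of miR-99a lies near 0.

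Relatives by seed were compared after the values of the 10 had been seen. Some, such as miR-99a and miR-100 or miR-16 and miR-195, differ by few bases. Whether their probes tell them apart was not tested, so they may not be separate measurements. miR-28 shares the seed AGGAGCU with miR-708, and the letters after the seed differ:
miR-708: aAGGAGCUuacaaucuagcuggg
miR-28: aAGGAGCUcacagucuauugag

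miR-28, which lies within Lpp, read 8.04, 8.08, 7.93 and 7.997 on compliant and 8.11, 8.11, 8.25 and 8.11 on rigid arrays, with no overlap. Its difference was 0.13 ± 0.04 (adjusted p = 0.0579), so it passed with TGF-beta alone. The other arms, miR-708* at 0.07 ± 0.04 (adjusted p = 0.478) and miR-28* at 0.04 ± 0.04 (adjusted p = 0.699), were detected on all 8 arrays and did not pass.

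miR-99a shares ACCCGUA with miR-100, whose difference had the same sign, and with miR-99b, whose difference had the opposite sign:
miR-99a: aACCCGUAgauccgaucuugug
miR-100: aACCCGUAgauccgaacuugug
miR-99b: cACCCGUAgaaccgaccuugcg

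miR-100 differed by -0.15 ± 0.04 (adjusted p = 0.0868) and miR-99b by 0.12 ± 0.05 (adjusted p = 0.202), and neither passed. let-7c, the neighbour of miR-99a on chromosome 16 that also has a copy on chromosome 15, differed by 0.00 ± 0.06. The 2 seed relatives of miR-148a, miR-148b and miR-152, did not enter the test: miR-148b was detected on 1 rigid and 1 compliant array and miR-152 on none.

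miR-16, a brake on the cell cycle, had the largest positive difference of the 365 without passing. It read 9.93, 10.03, 10.42 and 10.61 on compliant and 10.42, 10.42, 10.56 and 10.86 on rigid arrays, which overlapped. The difference was 0.32 ± 0.09 (adjusted p = 0.0579), and it was called in the authors' table and under both median scalings. Its seed AGCAGCA is shared by 5 more miRNAs on the array. Of these, miR-195 had the difference nearest to that of miR-16, and its letters after the seed are also alike:
miR-16: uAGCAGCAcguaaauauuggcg
miR-195: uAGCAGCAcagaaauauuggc

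miR-195 differed by 0.25 ± 0.08 (adjusted p = 0.0958). The other 4 were nearer to 0, with miR-15b at 0.10 ± 0.07, miR-322 at 0.03 ± 0.05, miR-497 at -0.02 ± 0.05 and miR-15a at -0.04 ± 0.07. miR-15b and miR-15a are encoded beside copies of miR-16. In 4T1 miR-16 and miR-195 did pass, at 0.53 ± 0.09 (adjusted p = 0.000895) and 0.40 ± 0.08 (adjusted p = 0.00359).

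Lists of related miRNAs held few calls. The group of 20 tested miRNAs reported in work on stiffness or YAP held 1 call, miR-9, with 7 positive and 13 negative differences and a median of -0.02, beside 10 of 365 and a median of 0.01 over all probes. Next in it by p were miR-222 at -0.17 ± 0.05 (adjusted p = 0.0668), miR-301b at 0.12 ± 0.03 (adjusted p = 0.078) and miR-100. miR-221 and miR-222, which repress the cell cycle inhibitor Cdkn1b, had differences of -0.27 ± 0.09 (adjusted p = 0.113) and -0.17 over both treatments. The 3 members of the miR-29 family, repressors of collagen genes, had a median of -0.06 and no call, and miR-29c was farthest from 0 at -0.10 ± 0.07. The 5 miR-130 and miR-301 members had a median of 0.03 and no call.

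Among the 10 miRNAs reported as promoting metastasis, 2 were lower on rigid culture, miR-210 and miR-9, and the median was -0.11. Of the 11 reported as suppressing it, 2 were also lower, miR-149 and miR-205, with a median of -0.07. Over all 365 tested, 7 were called lower (1.92%) and the median was 0.01, and nothing particular to either list is read from these counts. In the epithelial group of 6, miR-205 was the 1 call, and miR-141 (-0.02 ± 0.05) and miR-200a (-0.03 ± 0.05) were close to 0. The miR-183 cluster, also epithelial, had 3 negative differences, a median of -0.06 and no call, with miR-182 at -0.14 ± 0.05 (adjusted p = 0.158).

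Over all 365 tested miRNAs, 199 differences were positive and 165 negative. All 6 tested miR-34 and miR-449 members had positive differences, with a median of 0.10 and none called, miR-449a being at 0.14 ± 0.07. All 4 miR-181 members were negative with a median of -0.04, and 7 of 9 let-7 members were negative with a median of -0.06. Whether the probes of a family measure each member separately was not tested. The 5 miR-99, miR-100 and miR-125 members had a median of -0.12 with miR-99a the call. The miR-17 clusters (12 tested, median -0.03), the miR-30 family (5, -0.07), the miR-23, miR-27 and miR-24 clusters (3, -0.11), the miRNAs reported as TGF-beta induced (11, 0.00), the Dlk1-Dio3 cluster (27, 0.03) and the Sfmbt2 cluster (15, -0.01) held no call. The called miR-882, which was not on the Dlk1-Dio3 list, lies between Rian and Mirg, within that imprinted domain of chromosome 12. The fibroblast markers (5, 0.03), embryonic stem cell markers (6, 0.01), muscle markers (2, 0.01) and neural and liver markers (3, -0.03) held none either, and miR-451 differed by 0.13 ± 0.10. Blood marker signal, which is that of miR-451 alone, was 1012 to 1230 on rigid and 935 to 1152 on compliant arrays. Its part in the results was not tested.

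The same 8 arrays also give the response to TGF-beta, with 78 of 365 called (21.4%), against 10 for rigidity. Of the 7 miRNAs lower on rigid culture, 4 were also lower with TGF-beta than with the inhibitor, by a log2 difference of -0.86 ± 0.05 for miR-205 (detected in compliant culture with the inhibitor only), -0.43 ± 0.09 for miR-210, -0.40 ± 0.04 for miR-99a and -0.20 ± 0.04 for miR-31*, all called. miR-148a and miR-149 went the other way with TGF-beta, at 0.34 ± 0.04 and 0.23 ± 0.02, both called. miR-9 was at -0.11 ± 0.05 (adjusted p = 0.116), and of the rises miR-805 was at 0.05 ± 0.05 and miR-708 at 0.02 ± 0.04, none of them called, while miR-882 was called at 0.14 ± 0.04.

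The rigid minus compliant difference was tested against that of the other lines in the same fit. In 67NR 40 miRNAs passed (11.0%) and in 4T1 27 (7.40%). The difference in 4TO7 departed from that in 67NR for 25 miRNAs (6.85%), 8 higher (2.19%) and 17 lower (4.66%) in 4TO7, and from that in 4T1 for 6 (1.64%), 3 in each direction (0.822% each). The first split moved to 3 higher and 17 lower when scaled to the median of the always detected probes and to 12 higher and 11 lower in the authors' table, which gave 2 higher and 1 lower against 4T1. The count against 67NR dropped to 10 without rigid basal set 1, to 11 without compliant basal set 2 and to 15 without compliant TGFb set 2.

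miR-210 separated 4TO7 from 67NR, where it differed by 0.07 ± 0.09, by -0.63 ± 0.12 (adjusted p = 0.00644). In 4T1 it was -0.27 ± 0.09 (adjusted p = 0.0641), and the difference between 4TO7 and 4T1 was not shown (-0.29 ± 0.12, adjusted p = 0.492). miR-31* was 0.07 ± 0.04 in 67NR, which departed from 4TO7 by -0.32 ± 0.06 (adjusted p = 0.00644), a call that slide as a block ended (adjusted p = 0.0614). miR-805 was -0.05 ± 0.05 in 67NR (4TO7 minus 67NR 0.36 ± 0.07, adjusted p = 0.00644) and 0.41 ± 0.05 in 4T1, which was called there. miR-882 was -0.12 ± 0.04 in 67NR (4TO7 minus 67NR 0.29 ± 0.06, adjusted p = 0.00644), which slide as a block also ended (adjusted p = 0.0787).

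miR-9 fell on rigid culture in each line: -0.27 ± 0.05 in 67NR (adjusted p = 0.00157), -0.16 ± 0.05 in 4T1 (adjusted p = 0.0453) and -0.28 in 4TO7. miR-149 was lower in all 3 as well, but in 67NR it was detected on 1 of 8 arrays. In 4T1 its fitted difference was -0.49 ± 0.02, so that 4TO7 minus 4T1 was 0.32 ± 0.04 (adjusted p = 5.86e-05). Neither rigid inhibitor array of 4TO7 detected miR-149, so the size of this departure was not fully measured. With TGF-beta, where all 4TO7 arrays detected it, the 4TO7 difference was -0.19 ± 0.04. In 4T1 miR-99a fell by 0.22 ± 0.04 (adjusted p = 0.00128) and was -0.08 ± 0.04 in 67NR. miR-708 was 0.12 ± 0.04 in 67NR and 0.13 ± 0.04 in 4T1, neither called, and neither was shown to differ from 4TO7. miR-205 and miR-148a were below detection on all 16 arrays of the other lines, so those lines gave no rigid response to set beside theirs.

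**Figure D5:**
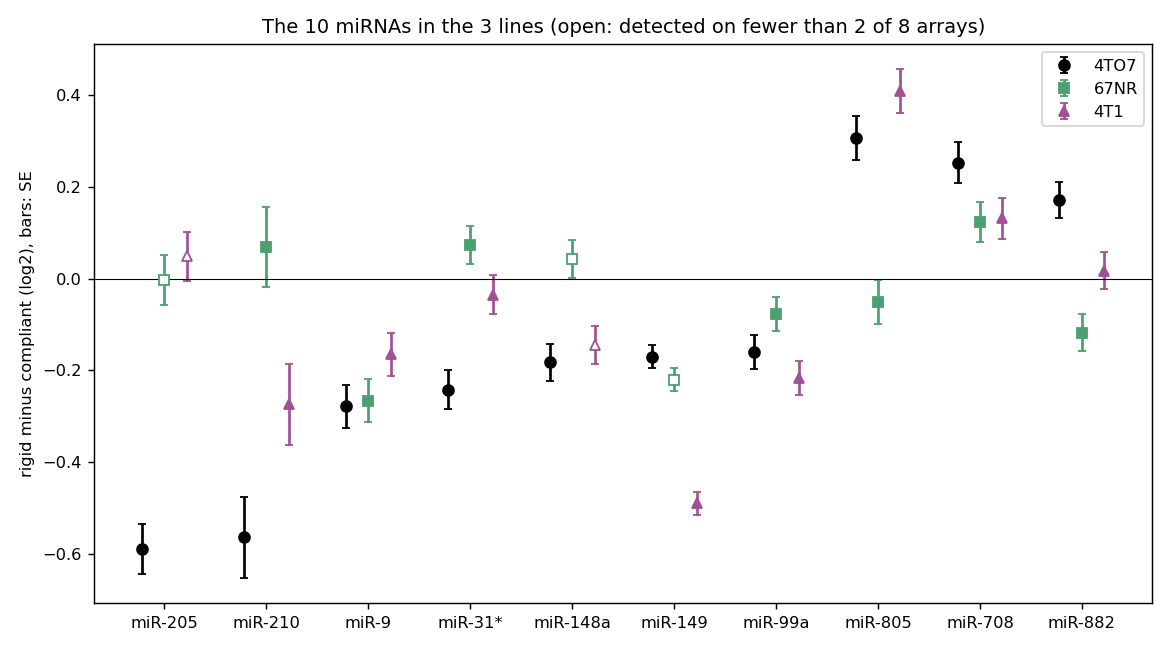
Rigid minus compliant log2 difference with SE bars (y axis) of the 10 called miRNAs (x axis) in 4TO7 (black circles), 67NR (green squares) and 4T1 (purple triangles); open symbols were detected on fewer than 2 of a line's 8 arrays. miR-9 lies below 0 in each line, miR-210 and miR-31* lie slightly above 0 in 67NR, and miR-805 is above 0 in 4TO7 and 4T1.

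Among the smallest p for these differences were also miRNAs that did not pass in 4TO7 itself. miR-706 rose on rigid culture by 0.45 ± 0.04 in 67NR and 0.44 ± 0.04 in 4T1 but was at 0.08 ± 0.04 in 4TO7 (adjusted p = 0.401), and it departed by -0.37 ± 0.06 from 67NR (adjusted p = 0.005) and by -0.36 ± 0.06 from 4T1 (adjusted p = 0.00255). miR-466c-5p rose by 0.25 ± 0.04 in 67NR and was -0.01 ± 0.04 in 4TO7 (4TO7 minus 67NR -0.26 ± 0.05, adjusted p = 0.00644). miR-146a and miR-146b, which restrain NF-kappaB signalling, fell in 4T1, with differences of -0.80 ± 0.06 and -0.66 ± 0.05. In 4TO7 they were at -0.17 ± 0.06 and -0.16 ± 0.05, with 2 and 4 of 8 arrays detected. The fitted departures from 4T1 were 0.63 ± 0.08 (adjusted p = 9.22e-05) and 0.50 ± 0.07 (adjusted p = 0.000247), but miR-146a was undetected on all 4 rigid 4TO7 arrays and miR-146b on 3, so the size of a fall in 4TO7 could not be measured. miR-455 was -0.08 ± 0.04 in 4TO7 and 0.16 ± 0.04 in 4T1 (4TO7 minus 4T1 -0.24 ± 0.05, adjusted p = 0.0304), and slide as a block ended that call (adjusted p = 0.213).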

How the data were processed

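Total RNA of 3 mouse lines in 12 conditions was hybridised to 24 Dharmacon miRNA arrays with 2 dyes, the sample in DY649 and a reference in DY547, per the labels and the deposited description of the columns. The authors deposited, per array, a linear relative intensity of the sample over the reference, after background subtraction and labelling correction and without normalization between arrays, and a detection p-value. The authors also deposited a log2 value table of 338 probes, all among those tested. Set against the array files, it equals log2 of these intensities plus 1 constant per array of -0.287 to 0.236 (largest deviation 5.87e-06), with array medians of 8.13 to 8.36. The rule behind these constants, the scanner and the software were not given in the sources used here.

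Here the intensities of 558 miRNA probes were taken as log2 and brought to a common distribution (quantile normalization, limma 3.58.1, R 4.3.3); 35 spike-in probes were left out. Before this step the 8 array medians lay between 7.29 and 7.73. Probes were kept if detected at p under 0.05 on both arrays of any of the 12 groups, and if the code for a failed reference signal stood on fewer than 12 arrays. limma fitted 12 group means to all 24 arrays (12 residual degrees of freedom, median residual SD 0.0764) with a mean-variance trend; p-values are two-sided and adjusted by Benjamini-Hochberg over 365 probes, with a threshold of 0.05. The number of arrays limits the precision. A fold for a miRNA undetected on every array of a group is a bound: the brighter group's mean against the higher, per array, of its own value and the lowest detected one.

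Named were, over both treatments, up to 10 rises and 10 falls that passed with the same sign in both sets, up to 5 each way within a treatment, the 6 smallest p of each difference between effects, and from each list its called members or those with the smallest p. The comparison, its lists and its tests were chosen with earlier results of these data known. Alternatives were other scalings, the authors' table, 2 other filters, slide as a fixed or random block, the set number as a block, array weights, no trend, the lines' own arrays alone, and leaving out each array in turn. Sequences and loci are those of RefSeq, build GRCm38.p6.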

Additional observations from a re-analysis of the deposited data

Results flagged for a closer look

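These results are singled out because the rigid minus compliant log2 difference in 4TO7 departed from that in another line by limma's test of the difference itself, with 4TO7 minus the other line given. Against 67NR the values were -0.59 for miR-205, which no 67NR array detected so that 67NR has no measured response, -0.37 for miR-706, 0.36 for miR-805, -0.32 for miR-31*, -0.26 for miR-466c-5p and 0.29 for miR-882. Against 4T1 they were -0.64 for miR-205, which no 4T1 array detected either, 0.63 for miR-146a and 0.50 for miR-146b, which were undetected on 4 and 3 of the 4 rigid 4TO7 arrays, -0.36 for miR-706, 0.32 for miR-149 and -0.24 for miR-455. miR-149 was undetected on both rigid inhibitor 4TO7 arrays, so the size of its departure was not fully measured. For miR-706, miR-466c-5p, miR-146a, miR-146b and miR-455 the 4TO7 difference alone did not pass, and the other line's did.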

How the results depend on the processing

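Of the 10 calls, those of miR-149, miR-205, miR-210, miR-31*, miR-708, miR-805 and miR-9 passed whichever single 4TO7 array was left out, and no alternative turned the sign of any of the 10. Leaving out 1 array gave 7 to 15 calls over both treatments, 1 to 5 with the inhibitor, 0 to 10 with TGF-beta, 0 to 1 for the difference between treatments, 10 to 19 for 4TO7 minus 67NR and 5 to 6 for 4TO7 minus 4T1. Where this left an arm with 1 array, that array was assumed to vary like the other groups. For the 10 calls over both treatments, 21 passed when arrays were scaled to the median of always detected probes, 2 with no normalization and 6 with tests of those probes alone. For the 5 with the inhibitor, 1 passed with median scaling over all probes, 3 with scaling to always detected probes, 1 with no normalization, 1 in the authors' table, 2 with no filter, 1 with probes detected on all arrays, 1 with slide as a fixed block, 8 with array weights, 2 without the trend and 1 with the 8 arrays of 4TO7 alone. For the 9 with TGF-beta, 1 passed with no normalization, 4 with slide as a fixed block, 4 with array weights and 0 with the 8 arrays of 4TO7 alone. For the 25 against 67NR, 10 passed with no normalization and 13 with probes detected on all arrays. For the 6 against 4T1, 2 passed with no normalization, 3 in the authors' table and 2 with probes detected on all arrays. The cause was not tested for any of these, except that the stricter filter tests fewer probes and the 4TO7 fit fewer arrays. With no normalization the median of all miRNAs shifted to -0.11 for the difference between treatments and to -0.15 for 4TO7 minus 67NR. The remaining results, mostly of single miRNAs, kept direction and side of the threshold in 2113 cases, lost the call in 163 and gained it in 29, and 18 values without a test moved. Signal over background limits miR-205, miR-149 and miR-882, which were undetected on some 4TO7 arrays.

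The set numbers were not taken to pair the arrays, because the set 1 minus set 2 deviations did not correlate above 0.1 in every pair of 4TO7 groups: they ran from -0.16 to 0.38, with 0.38 between compliant and rigid TGF-beta arrays and -0.12 between compliant and rigid inhibitor arrays. With the set number within each line as a replicate block, 18 passed over both treatments, 8 with the inhibitor and 13 with TGF-beta, against 29 for 4TO7 minus 67NR and 6 for 4TO7 minus 4T1. Because of the value of -0.12, the crossed pairing was tried after seeing the data and called 2 with the inhibitor.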
